A study of Mus musculus with 6 samples.

Results

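The mutually exclusive exon pairs described here are the 3600 events of that type, in 2101 genes, in the deposited splicing tables of newborn mouse hearts that lack or carry the RNA-binding protein Rbpms. All events of the type were taken, out of 39201 events of 5 splicing types counted from junction reads. Heart ventricles came from C57BL6 mice at postnatal day 1, with 3 Rbpms KO and 3 WT mice, each labelled as a biological replicate, and polyadenylated RNA was sequenced with a stranded kit. The labels do not state which part of Rbpms was removed or in which cells. The 3600 events held 3335 distinct exon pairs, so some pairs appeared with more than 1 choice of flanking exons.

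The headers of the splicing tables name no genotype and no library. The sets are therefore called by their reads at Rbpms itself. A 151-base Rbpms exon had 3, 4 and 1 inclusion reads in the Rbpms-depleted set, against 554, 545 and 571 in the Rbpms-containing set. In the gene table, whose columns do name the libraries, Rbpms stood at 0.594, 0.276 and 0.240 RPKM in Rbpms KO ventricles, against 33.1, 35.7 and 38.1 RPKM in WT ventricles. The paralog Rbpms2 averaged 20.9 ± 3.99 RPKM in Rbpms KO ventricles and 37.5 ± 2.33 RPKM in WT ventricles (SD, n = 3 each).

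Mutually exclusive exons are neighbouring exons of which a transcript normally keeps 1, so that a protein swaps 1 segment for another of like place. Many such pairs arose by duplication of an exon, and in muscle they set tissue forms of alpha-actinin, tropomyosin, pyruvate kinase and the mitochondrial phosphate carrier. Rbpms binds RNA through CAC motifs, and in rat vascular smooth muscle cells it is known to favour the smooth muscle forms of cytoskeletal transcripts, Actn1 among them.

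The pairs printed next carry the main shifts, or are the paired exons of metabolic genes with a well-known exchange. Coordinates are those of GRCm38 (mm10) and the bases are those of GENCODE M21 transcripts, 5′ to 3′ in the direction of transcription. Capitals mark bases that do not match the partner exon in a global alignment. The last 2 lines set the 33-base exons of Camk2d and Camk2g against each other, and their capitals mark the bases that differ between the 2 genes. All 14 exons are coding.
Actn1 upstream exon, chr12:80170686-80170766, minus strand: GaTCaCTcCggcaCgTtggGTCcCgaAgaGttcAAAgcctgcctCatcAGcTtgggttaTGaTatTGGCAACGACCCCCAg
Actn1 downstream exon, chr12:80170183-80170248, minus strand: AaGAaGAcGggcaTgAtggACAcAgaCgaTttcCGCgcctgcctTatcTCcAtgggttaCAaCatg
Tpm2 upstream exon, chr4:43519003-43519078, minus strand: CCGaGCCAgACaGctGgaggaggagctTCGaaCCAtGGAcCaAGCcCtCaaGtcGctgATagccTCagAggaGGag
Tpm2 downstream exon, chr4:43518644-43518719, minus strand: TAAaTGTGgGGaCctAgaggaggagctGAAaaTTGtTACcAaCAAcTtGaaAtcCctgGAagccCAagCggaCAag
Ttn upstream exon, chr2:76965777-76965914, minus strand: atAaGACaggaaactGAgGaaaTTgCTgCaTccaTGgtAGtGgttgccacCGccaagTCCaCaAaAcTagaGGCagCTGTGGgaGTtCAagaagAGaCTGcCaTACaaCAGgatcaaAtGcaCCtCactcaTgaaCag
Ttn downstream exon, chr2:76965091-76965228, minus strand: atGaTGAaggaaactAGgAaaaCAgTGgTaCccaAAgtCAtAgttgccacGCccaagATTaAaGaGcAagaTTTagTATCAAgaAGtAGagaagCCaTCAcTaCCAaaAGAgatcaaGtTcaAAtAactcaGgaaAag
Eno1 upstream exon, chr4:150241767-150241825, plus strand: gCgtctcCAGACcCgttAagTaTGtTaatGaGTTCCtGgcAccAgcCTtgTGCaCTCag
Eno1 downstream exon, chr4:150242122-150242180, plus strand: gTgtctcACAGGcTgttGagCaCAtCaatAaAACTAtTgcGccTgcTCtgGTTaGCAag
Pkm upstream exon, chr9:59675029-59675195, plus strand: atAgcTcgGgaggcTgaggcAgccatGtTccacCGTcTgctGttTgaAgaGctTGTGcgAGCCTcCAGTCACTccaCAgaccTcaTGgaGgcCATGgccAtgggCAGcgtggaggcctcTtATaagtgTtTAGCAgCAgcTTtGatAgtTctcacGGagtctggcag
Pkm downstream exon, chr9:59675568-59675734, plus strand: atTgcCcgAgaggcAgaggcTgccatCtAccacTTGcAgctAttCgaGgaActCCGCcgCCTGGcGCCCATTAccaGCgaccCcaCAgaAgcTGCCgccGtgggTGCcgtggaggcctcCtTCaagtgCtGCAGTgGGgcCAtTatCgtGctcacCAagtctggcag
Slc25a3 upstream exon, chr10:91122207-91122331, minus strand: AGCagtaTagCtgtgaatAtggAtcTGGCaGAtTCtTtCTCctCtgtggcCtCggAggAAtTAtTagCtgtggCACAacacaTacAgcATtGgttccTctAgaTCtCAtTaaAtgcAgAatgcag
Slc25a3 downstream exon, chr10:91121922-91122043, minus strand: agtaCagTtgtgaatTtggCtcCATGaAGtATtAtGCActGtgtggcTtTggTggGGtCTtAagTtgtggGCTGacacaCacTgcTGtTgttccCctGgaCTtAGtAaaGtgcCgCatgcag
Camk2d upstream exon, chr3:126802937-126802969, plus strand: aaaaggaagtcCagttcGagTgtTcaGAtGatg
Camk2g upstream exon, chr14:20747819-20747851, minus strand: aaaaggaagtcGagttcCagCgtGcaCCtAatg
The partner exons matched at 51.9% of aligned positions in Actn1, 53.9% in Tpm2, 57.2% in Ttn, 50.8% in Eno1, 61.7% in Pkm and 61.6% in Slc25a3. The 33-base exons of Camk2d and Camk2g matched at 78.8% of positions.

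For each pair the authors' tables give an inclusion level per library. By the exon lengths in the companion table that also counts reads inside exons, the level is the use of the exon that comes first in transcription, in all 3537 pairs of unequal length on either strand. It is called upstream exon use here and is given as a percent of the length-corrected junction reads of both exons. The level rests on 4 junctions, from each exon to the flanking exon before it and to the flanking exon after it. A transcript that holds both exons lends reads to both sides, which puts the level near 50% although no choice was made.

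Most pairs in the table were not exclusive in these hearts. Only 234 of the 3600 events, or 6.50%, had each exon in at least 1 annotated transcript and both in none. In 2035 tested events the skipped-exon tables also gave the reads that join the 2 exons, that pass from either exon straight to the far flanking exon, or that skip both. Among these single junctions, joined exons made up a median of 96.9% of reads, and 1536 events were above 90%. In the 20 annotated exclusive events among them the median was 0.954%, and 16 were under 5%. Upstream exon use between 40% and 60% was correspondingly common, in 1325 of 2689 tested events, or 49.3%.

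**Figure D1:**
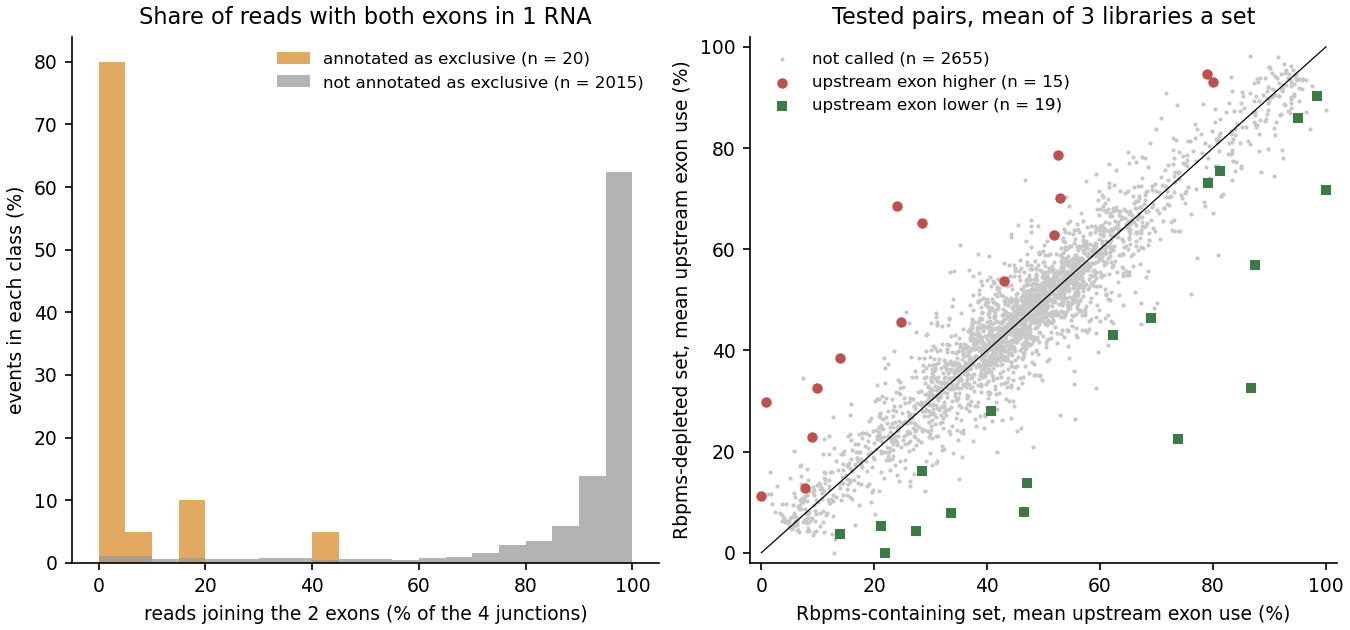
Left, histogram of the reads that join both exons as a percent of the reads at the 4 single junctions (6 libraries summed), with events annotated as exclusive in orange (n = 20) and the others in grey (n = 2015), each scaled to 100%. Right, mean upstream exon use in percent in the Rbpms-depleted set (y axis) against the Rbpms-containing set (x axis) for 2689 tested events, where the 34 called pairs lie off the diagonal, 15 with the upstream exon higher and 19 with it lower in the Rbpms-depleted set.

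Read depth differed between the sets, and every Rbpms-depleted library was below every Rbpms-containing one. Junction reads over the tested events numbered 533266 to 577055 in the Rbpms-depleted set and 644438 to 666528 in the Rbpms-containing set. The first library of the Rbpms-containing set stood apart from the other two, with a mean chi-square per event of 2.57 and 2.21 against them, while these differed from each other by 1.19 and the 3 libraries of the Rbpms-depleted set by 1.21 to 1.36. Marker genes of other tissues moved with genotype. Summed over 10 smooth muscle genes the level was 374 to 482 RPKM in Rbpms KO ventricles and 1066 to 1235 RPKM in WT ventricles, and most of that difference was Acta2, without which the sum was 210 to 237 RPKM in Rbpms KO ventricles and 253 to 271 RPKM in WT ventricles. Des made up most of the sum without Acta2, at 169 to 193 RPKM in Rbpms KO ventricles and 179 to 196 RPKM in WT ventricles. Myh11 was at 0.844 to 2.95 RPKM in Rbpms KO ventricles and 6.91 to 13.1 RPKM in WT ventricles. Cnn1 was at 2.50 to 4.62 RPKM in Rbpms KO ventricles and 15.5 to 20.1 RPKM in WT ventricles. The ranges of Des, Tagln, Myocd and Lmod1 overlapped between the genotypes. Of the 10 smooth muscle genes, 6 were lower at an FDR under 0.05 in the authors' deposited table. Summed over 10 of 12 airway genes (Sftpa1 and Sftpc have no row), the level was 5.19 to 24.2 RPKM in Rbpms KO ventricles and 661 to 919 RPKM in WT ventricles. By the authors' FDR 8 of these 10 were lower and 0 higher. Cardiomyocyte genes summed to 11411 to 15614 RPKM in Rbpms KO ventricles and to 15991 to 17095 RPKM in WT ventricles, with 2 of 9 lower and 2 higher by the authors' FDR. Endothelial genes summed to 211 to 234 RPKM in Rbpms KO ventricles and 163 to 187 RPKM in WT ventricles (2 of 5 higher), fibroblast genes to 474 to 604 RPKM in Rbpms KO ventricles and 410 to 566 RPKM in WT ventricles (2 of 6 higher), and skeletal muscle genes to 209 to 252 RPKM in Rbpms KO ventricles and 249 to 289 RPKM in WT ventricles (0 of 6 passing). In bulk RNA, fewer cells of a type and less RNA or another exon choice per cell cannot be told apart.

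Of 2689 events tested, 34 in 23 genes differed between the sets (limma, Benjamini-Hochberg adjusted p under 0.05), which is 1.26% of events and 1.34% of the 1715 genes tested. Upstream exon use was higher in the Rbpms-depleted set in 15 events (0.558%) and lower in 19 (0.707%). In all 34 the lowest library of 1 set lay above the highest of the other, which held for 11.2% of the tested events in all, and in 29 the means differed by at least 10 points. Without the first library of the Rbpms-containing set 46 events in 32 genes passed, among them all 34. With 1 common prior variance in place of a prior that follows read depth, 17 of the 34 passed and no other. The authors' own rMATS test called 45 of the tested events (1.67%), 33 of them shared. Of 4884 skipped exons tested the same way, 51 passed (1.04%).

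**Figure D2:**
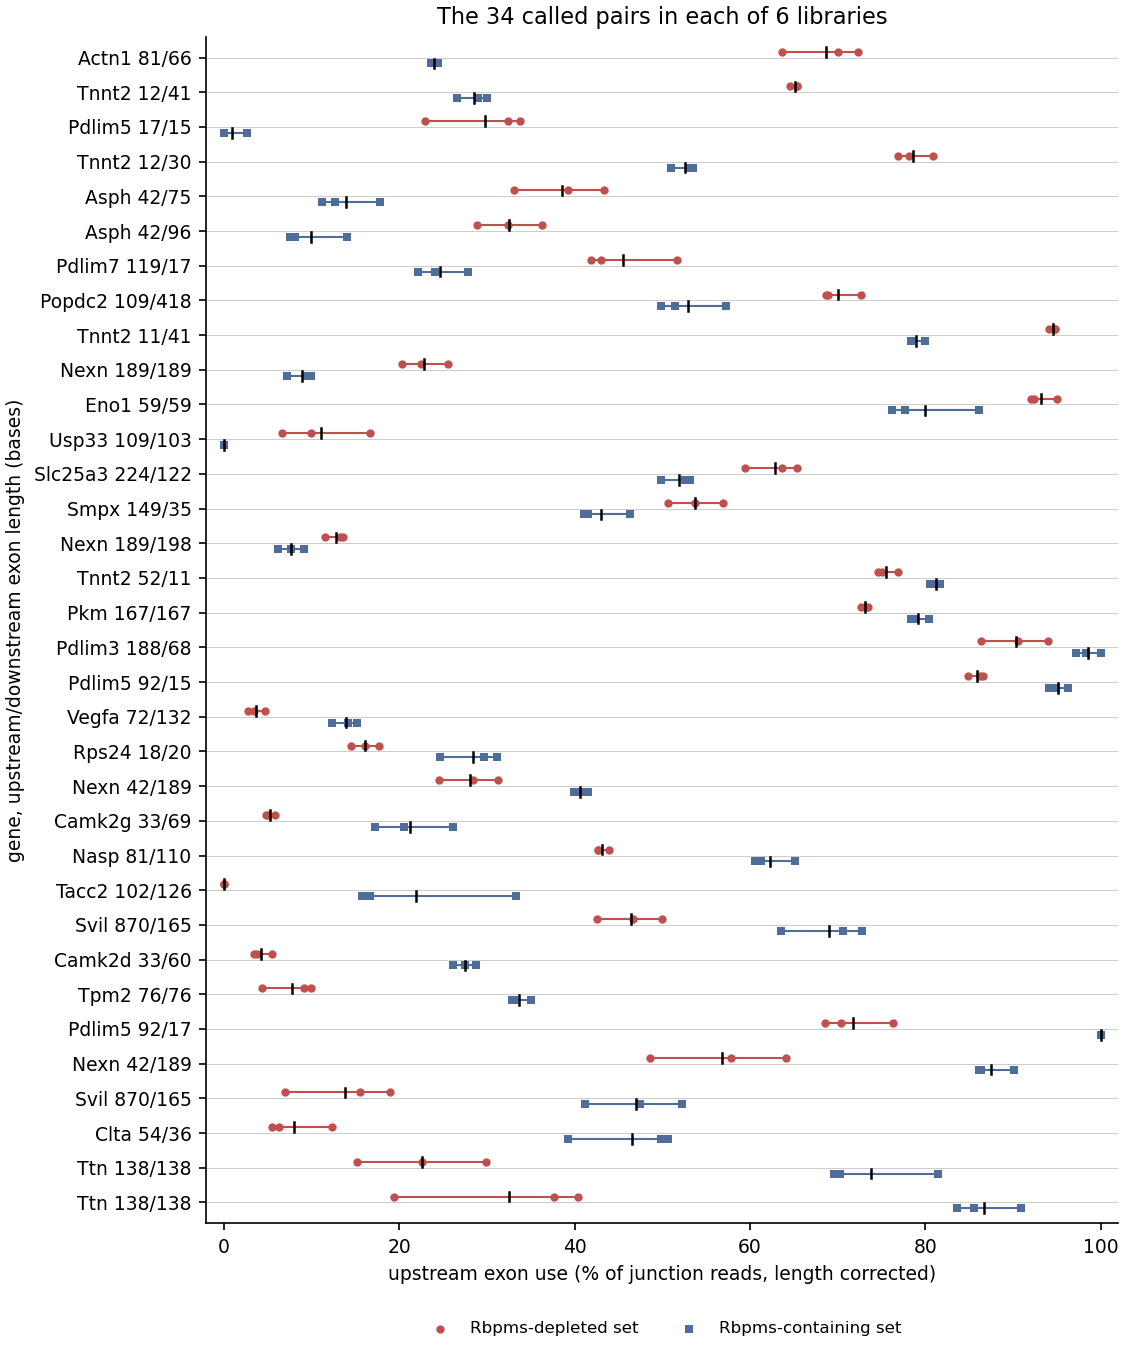
Upstream exon use in percent (x axis) in each of 3 libraries for the 34 called pairs, with the Rbpms-depleted set as red circles above the Rbpms-containing set as blue squares. Black ticks are means, lines span lowest to highest, rows are named by gene and upstream/downstream exon length in bases and run from the largest increase, Actn1, to the largest decrease, a Ttn pair, and in no row do the sets overlap.

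The called pairs stood apart in structure from the table as a whole. Of 99 tested events annotated as exclusive, 10 in 9 genes were called (10.1%), against 24 of 2590 others (0.927%). Both exons of a pair left the same reading frame in 28 of the 34 called events, or 82.4%, and in 1221 of 2689 tested, or 45.4%. Of 73 tested pairs of equal length, 6 were called (8.22%). Frame-keeping pairs were called in 2.29% of cases and frame-changing pairs in 0.409%. Joined exons made up a median of 20.1% of single-junction reads in the 20 called events with all 4 junctions. These are counts over events, some of which share an exon, and no test was run on them. A transcript with both exons lends reads to both sides of the level, as stated above. Pairs joined in most reads may therefore have less room to shift and to be called. What part this has in the higher share called among exclusive events, and in the lower joined median of called events, was not tested.

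The pair of Actn1, the alpha-actinin of smooth muscle and nonmuscle cells that crosslinks actin filaments, had the largest gain of an upstream exon. The 81-base upstream exon is known as the nonmuscle form of the EF-hand region and the 66-base downstream exon as the smooth muscle form. Upstream exon use was 70.0%, 72.3% and 63.6% in the Rbpms-depleted libraries, against 24.0%, 24.4% and 23.6% in the Rbpms-containing libraries. Every depleted library lay far above every containing one. The difference of means was 44.6 points, or 2.67 on the log2 odds scale with an SE of 0.19 (limma adjusted p = 1.8e-06).

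The reads show an exchange of the exons and not a change of 1 alone. The upstream exon had 97, 100 and 67 junction reads in the Rbpms-depleted libraries, against 40, 46 and 48 in the Rbpms-containing libraries. The downstream exon had 39, 36 and 36 reads in the Rbpms-depleted libraries, against 119, 134 and 146 in the Rbpms-containing libraries. Reads joining both exons numbered 5, 3 and 2 in the Rbpms-depleted libraries, against 0, 1 and 0 in the Rbpms-containing libraries. Joined exons were therefore rare in both sets, at 5.46% of single-junction reads in the depleted set and 0.355% in the containing set. Gene-level Actn1 was 15.1 ± 2.24 RPKM in Rbpms KO ventricles and 20.9 ± 3.72 RPKM in WT ventricles (SD, n = 3 each), with a log2 fold change of -0.43 and an FDR of 0.0303 in the authors' deposited table.

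Tpm2, the beta-tropomyosin gene, moved its pair of 76-base exons the other way along the transcript. The upstream exon is known as the smooth muscle and nonmuscle form and the downstream exon as the skeletal muscle form. Upstream exon use was 9.10%, 4.40% and 10% in the Rbpms-depleted libraries, against 32.9%, 35.0% and 33.1% in the Rbpms-containing libraries. The ranges did not meet, and the change was -2.37 on the log2 odds scale (SE 0.20, limma adjusted p = 1.03e-05). Upstream exon reads were 52, 48 and 61 in the Rbpms-depleted libraries, against 160, 177 and 196 in the Rbpms-containing libraries. Downstream exon reads were 519, 1035 and 550 in the Rbpms-depleted libraries, against 327, 328 and 396 in the Rbpms-containing libraries, so the second depleted library was high in these. The exon used less in the Rbpms-depleted set was the smooth muscle form in Actn1 and the smooth muscle and nonmuscle form in Tpm2. The nonmuscle exon was thus used more in Actn1 and less in Tpm2, where the skeletal muscle exon was used more. Acta2 stood at 164 to 245 RPKM in Rbpms KO ventricles and 813 to 964 RPKM in WT ventricles. The 9 other smooth muscle genes summed to 210 to 237 RPKM in Rbpms KO ventricles and 253 to 271 RPKM in WT ventricles. Most of that sum was Des. The airway genes summed to 5.19 to 24.2 RPKM in Rbpms KO ventricles and 661 to 919 RPKM in WT ventricles. What part these differences have in the exon shifts was not tested.

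**Figure D3:**
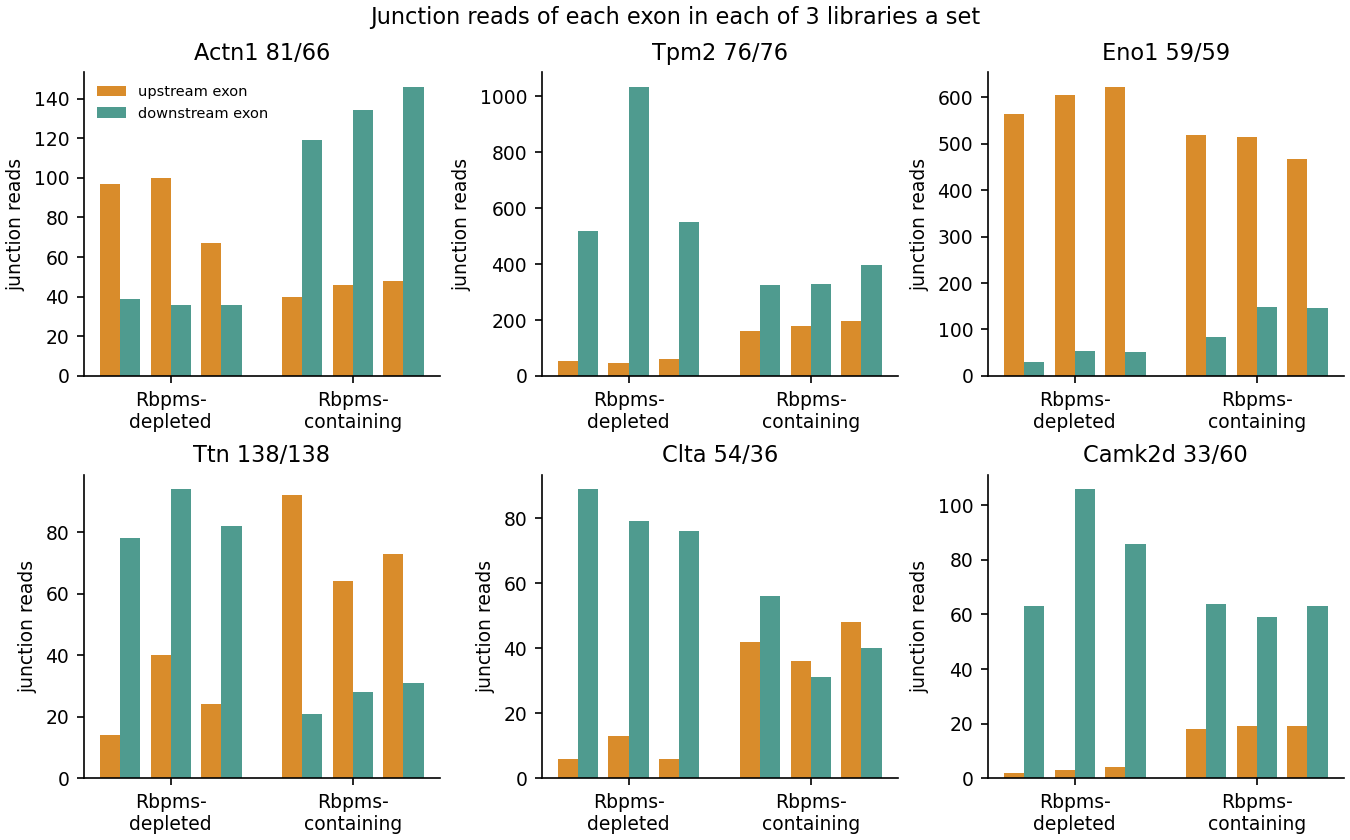
Junction reads (y axis, linear from 0, own scale per panel) of the upstream exon in orange and the downstream exon in teal for 6 called pairs, each library drawn as a pair of bars with the 3 Rbpms-depleted libraries left of the 3 Rbpms-containing ones. In Actn1 and Ttn the taller bar changes sides between the sets, in Tpm2, Eno1 and Camk2d the same exon leads in both, and in Clta the exons are close in the Rbpms-containing set alone.

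Pkm and Eno1 are glycolytic genes with exchanged exons. In Pkm, pyruvate kinase, the upstream exon gives the M1 form of adult muscle and the downstream exon the M2 form of growing tissue. Its upstream exon use was 72.7%, 73.4% and 73.1% in the Rbpms-depleted libraries, against 78.7%, 80.4% and 78.3% in the Rbpms-containing libraries, a difference of -6.07 points (limma adjusted p = 0.0308). The Pkm call was lost on the untransformed level (adjusted p = 0.104), with 1 common prior variance (0.557) and by the authors' FDR (0.0679). In Eno1, alpha-enolase, it was 95.0%, 92.0% and 92.4% in the Rbpms-depleted libraries, against 86.1%, 77.7% and 76.2% in the Rbpms-containing libraries. The Eno1 change was 1.51 on the log2 odds scale (SE 0.21, limma adjusted p = 0.000685), lost with 1 common prior variance (0.162). Joined exons of Eno1 were under 0.1% of single-junction reads in both sets. Only 1 annotated transcript of Eno1 holds the upstream exon.

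Slc25a3, the mitochondrial phosphate carrier, swaps a muscle exon (upstream) for a ubiquitous one (downstream). The 125/122-base pair had upstream exon use of 85.8%, 84.0% and 87.2% in the Rbpms-depleted libraries, against 82.8%, 81.6% and 79.5% in the Rbpms-containing libraries, and did not pass (limma adjusted p = 0.0971). Without the first library of the Rbpms-containing set it did (adjusted p = 0.0318). A longer 224-base version of the upstream exon against the same downstream exon passed at 62.8% ± 3.09 in the Rbpms-depleted set and 51.9% ± 1.76 in the Rbpms-containing set (SD, n = 3 each; limma adjusted p = 0.00995). The call was lost with 1 common prior variance (0.480) and with reads inside exons counted (0.0733). That version is partly noncoding and 1 annotated transcript holds it. It starts at the same base as the 125-base exon, and all its upstream reads fell on the junction that both exons share. The call is therefore not evidence of the longer exon.

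Tnnt2, cardiac troponin T of the thin filament, gave 4 called events and has a 30-base exon known from the embryonic form. A 41-base version of that exon, which begins 11 bases earlier and ends at the same base, served as downstream exon in 2 called events. Against the 12-base exon before it, upstream exon use was 65.4%, 65.3% and 64.6% in the Rbpms-depleted libraries, against 30%, 29.0% and 26.6% in the Rbpms-containing libraries (limma adjusted p = 5.32e-09). The downstream exon had 238, 307 and 331 reads in the Rbpms-depleted libraries, against 1274, 1322 and 1209 in the Rbpms-containing libraries, while upstream reads were 335 to 450 in the Rbpms-depleted libraries and 326 to 408 in the Rbpms-containing libraries. Nearly all of these downstream reads lay on the junction out of the exon, which the 41-base version shares with the 30-base exon. The shift thus lay in the downstream exon, whose versions these reads do not separate. As a skipped exon, the 30-base exon was included at 9.60% ± 0.300 in the Rbpms-depleted set and 32.2% ± 0.520 in the Rbpms-containing set (SD, n = 3 each) with 1 choice of flanking exons. With another choice it was included at 22.0% ± 0.721 in the Rbpms-depleted set and 52.8% ± 1.48 in the Rbpms-containing set. Tnnt2 at gene level averaged 981 ± 81.8 RPKM in Rbpms KO ventricles and 1035 ± 117 RPKM in WT ventricles.

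Ttn, the giant sarcomere spring, had the largest decrease. The pair is 2 exons of 138 bases that lie 548 bases apart among the early exons of the gene, in the stretch that anchors titin in the Z-disc. Upstream exon use was 15.2%, 29.9% and 22.6% in the Rbpms-depleted libraries, against 81.4%, 69.6% and 70.2% in the Rbpms-containing libraries. The sets lay far apart, with a change of -3.18 on the log2 odds scale (SE 0.32, limma adjusted p = 3.44e-05). Titin transcripts could hold both exons: joined reads made up 8.23% of single-junction reads in the Rbpms-depleted set and 36.1% in the Rbpms-containing set. As a skipped exon the upstream 138-base exon was included at 25.2% ± 7.57 in the Rbpms-depleted set and 77.7% ± 2.83 in the Rbpms-containing set (SD, n = 3 each; limma adjusted p = 0.0108). The second Ttn event uses the same exons with another flanking exon and had the widest difference of all, at 32.5% ± 11.4 in the Rbpms-depleted set and 86.7% ± 3.79 in the Rbpms-containing set.

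Nexn, which encodes the actin-binding Z-disc protein nexilin, gave 4 called events that share exons. Its 42-base exon against the 189-base exon that follows had upstream exon use of 48.6%, 57.8% and 64.1% in the Rbpms-depleted libraries, against 86.1%, 86.3% and 90.1% in the Rbpms-containing libraries (limma adjusted p = 1.16e-05). Reads joining both exons numbered 273, 401 and 430 in the Rbpms-depleted libraries, against 748, 682 and 548 in the Rbpms-containing libraries. The 42-base exon alone had 0, 0 and 0 reads in the Rbpms-depleted libraries, against 0, 1 and 0 in the Rbpms-containing libraries. The level thus followed the joined form, not an exchange. Joined reads worked out in 2 ways differed here by up to 5. The 42-base exon as a skipped exon was included at 55.1% ± 1.95 in the Rbpms-depleted set and 77.7% ± 2.25 in the Rbpms-containing set. The 42-base exon was low in the depleted set in both readouts. With reads inside exons counted too, 2 of the other 3 events lost their call, the pair of 189-base exons (difference of 0.800 points, adjusted p = 0.975) and the 189/198-base pair (1.37 points, adjusted p = 0.921). With 1 common prior variance all 3 lost it (adjusted p of 0.0503 to 0.454), and the 189/198-base pair also on the untransformed level (0.203).

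The PDZ-LIM genes Pdlim5, Pdlim3 and Pdlim7, whose proteins sit at the Z-disc or on actin cables, all had called pairs. In Pdlim5 a 17-base exon was found almost only in the Rbpms-depleted set, and was the minor choice there. As a skipped exon it was included at 12.4% ± 2.77 in the Rbpms-depleted set and 0% ± 0 in the Rbpms-containing set. Paired with a 92-base exon it had 140, 190 and 147 reads in the Rbpms-depleted libraries. In the Rbpms-containing libraries it had 0 of 602, 0 of 587 and 0 of 729 reads of the pair. These totals are the most even of 21 possible divisions of a digit string that had lost its commas. By that division the 0 counts allow up to 0.498%, 0.511% and 0.412% by counting error. The 0 counts themselves do not depend on the division. In a second called event, with a 15-base exon as partner, it had 37, 46 and 33 reads in the Rbpms-depleted libraries, against 1, 0 and 0 in the Rbpms-containing libraries. The 92-base exon had 500, 744 and 778 reads in the Rbpms-depleted libraries, against 602, 587 and 729 in the Rbpms-containing libraries by the same division. Pdlim5 RNA was 114 ± 10.6 RPKM in Rbpms KO ventricles and 88.1 ± 9.85 RPKM in WT ventricles, with an FDR of 0.0334 in the authors' deposited table. Upstream exon use of Pdlim3 was 90.3% ± 3.86 in the Rbpms-depleted set and 98.5% ± 1.41 in the Rbpms-containing set, and its downstream exon rested on 8, 10 and 13 reads in the Rbpms-depleted libraries against 2, 0 and 4 in the Rbpms-containing libraries. Pdlim7 had 45.5% ± 5.37 in the Rbpms-depleted set and 24.7% ± 2.85 in the Rbpms-containing set (SD, n = 3 each). With 1 common prior variance Pdlim3 and Pdlim7 lost their calls (adjusted p = 0.277 and 0.103), Pdlim3 also on the untransformed level (0.607) and with a pseudocount of 0.005 (0.0789), and Pdlim7 without the limits on mean use (0.0507).

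Camk2d and Camk2g encode the delta and gamma subunits of the kinase CaMKII, and the related 33-base exons printed above code for a basic run that is known as a nuclear localisation signal in the delta-B form. Camk2d upstream exon use was 3.80%, 3.40% and 5.50% in the Rbpms-depleted libraries, against 26.1%, 28.8% and 27.5% in the Rbpms-containing libraries (limma adjusted p = 1.58e-05). It rested on few reads, 2, 3 and 4 in the Rbpms-depleted libraries and 18, 19 and 19 in the Rbpms-containing libraries. Camk2g gave 4.80%, 5.90% and 5% in the Rbpms-depleted libraries, against 17.2%, 26.1% and 20.5% in the Rbpms-containing libraries (limma adjusted p = 0.000512), a call lost on the untransformed level (adjusted p = 0.0540). The 33-base exon fell in both genes, while gene-level log2 fold changes in the authors' deposited table were -0.01 for Camk2d and -0.10 for Camk2g, with FDRs of 0.986 and 0.655.

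Asph encodes junctin and other proteins of the sarcoplasmic reticulum membrane, and use of its 42-base exon rose. Use of the 42-base upstream exon against a 96-base exon was 28.9%, 32.4% and 36.3% in the Rbpms-depleted libraries, against 8.10%, 7.60% and 14.1% in the Rbpms-containing libraries (limma adjusted p = 0.000113), a call lost with 1 common prior variance (0.0503). Among the single junctions it was the joined form that was higher, with both exons in 7.71% of reads in the Rbpms-depleted set and 2.01% in the Rbpms-containing set, the 96-base exon alone in 86.2% in the Rbpms-depleted set and 90.5% in the Rbpms-containing set, and the 42-base exon alone in 0.202% over both sets. As a skipped exon the 42-base exon was included at 25.8% ± 3.11 in the Rbpms-depleted set and 7.57% ± 2.30 in the Rbpms-containing set (limma adjusted p = 0.0158).

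Clta, the clathrin light chain A of coated vesicles, switched between its 54-base and 36-base exons. Upstream exon use was 5.50%, 12.4% and 6.30% in the Rbpms-depleted libraries, against 39.2%, 49.9% and 50.7% in the Rbpms-containing libraries (limma adjusted p = 3.52e-05). Reads of the upstream exon were 6, 13 and 6 in the Rbpms-depleted libraries and 42, 36 and 48 in the Rbpms-containing libraries. Reads of the downstream exon were 89, 79 and 76 in the Rbpms-depleted libraries and 56, 31 and 40 in the Rbpms-containing libraries. The exchange took place in a minor share of the RNA, since 76.9% of single-junction reads in the Rbpms-depleted set and 77.7% in the Rbpms-containing set skipped both exons, as in the short form known from most tissues.

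In Vegfa, the angiogenic growth factor, the 72-base and 132-base exons both code for the heparin-binding part. Transcripts with both exons joined, the long matrix-bound form, made up 5.81% of single-junction reads in the Rbpms-depleted set and 31.8% in the Rbpms-containing set. Transcripts with the downstream exon alone made up 70.6% in the Rbpms-depleted set and 51.6% in the Rbpms-containing set, and those with neither 23.5% in the Rbpms-depleted set and 16.4% in the Rbpms-containing set. Upstream exon use, 3.67% ± 0.961 in the Rbpms-depleted set and 13.9% ± 1.42 in the Rbpms-containing set (SD, n = 3 each), thus followed the loss of the joined form, not an exchange. The call was lost on the untransformed level (adjusted p = 0.121).

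In the remaining called genes transcripts with both exons were also common. Svil, which encodes the actin- and myosin-binding protein supervillin, had joined exons in 77.7% of single-junction reads in the Rbpms-depleted set and 46.6% in the Rbpms-containing set, and the 870-base upstream exon without the 165-base one in 11.4% in the Rbpms-depleted set and 46.2% in the Rbpms-containing set. The 165-base exon as a skipped exon was included at 86.9% ± 6.41 in the Rbpms-depleted set and 54.3% ± 4.33 in the Rbpms-containing set (limma adjusted p = 0.0454). Rps24, a small-subunit ribosomal protein with tiny exons near its end, had joined exons in 45.2% in the Rbpms-depleted set and 61.2% in the Rbpms-containing set. Smpx, the small muscle protein of the X chromosome, had 72.2% joined in the Rbpms-depleted set and 80.0% in the Rbpms-containing set. With 1 common prior variance the calls of Svil (adjusted p = 0.103), Rps24 (0.162) and Smpx (0.541) were lost, and that of Smpx also with reads inside exons counted (0.350).

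Popdc2, a cAMP-binding membrane protein of the heart, showed how the inclusion level and the single junctions can part. Its level was 70.1% ± 2.20 in the Rbpms-depleted set and 52.9% ± 3.89 in the Rbpms-containing set, whereas the upstream exon without the downstream one made up 3.96% of single-junction reads in the Rbpms-depleted set and 9.81% in the Rbpms-containing set. With reads inside exons counted the difference was 2.27 points and no longer passed (adjusted p = 0.873), nor did it with 1 common prior variance (0.135). Nasp, a histone chaperone, had 99.6% joined in the Rbpms-depleted set and 99.3% in the Rbpms-containing set, with the call lost by 1 common prior variance (0.0508). Usp33, a deubiquitinase, had 90.4% in the Rbpms-depleted set and 98.5% in the Rbpms-containing set. Usp33 and Tacc2, a centrosome protein, rested on the fewest reads, and both lost their calls on the untransformed level (adjusted p = 0.825 and 0.642) and with reads inside exons counted (0.873 and 0.437). The upstream exon of Usp33 had 2, 5 and 2 reads in the Rbpms-depleted libraries and 0 of 29, 0 of 22 and 0 of 23 in the Rbpms-containing libraries, where 0 allows up to 10.3%, 13.6% and 13.0%. That of Tacc2 had 0 of 7, 0 of 14 and 0 of 13 in the Rbpms-depleted libraries, where 0 allows up to 42.9%, 21.4% and 23.1%, and 3, 3 and 5 reads in the Rbpms-containing libraries.

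**Figure D4:**
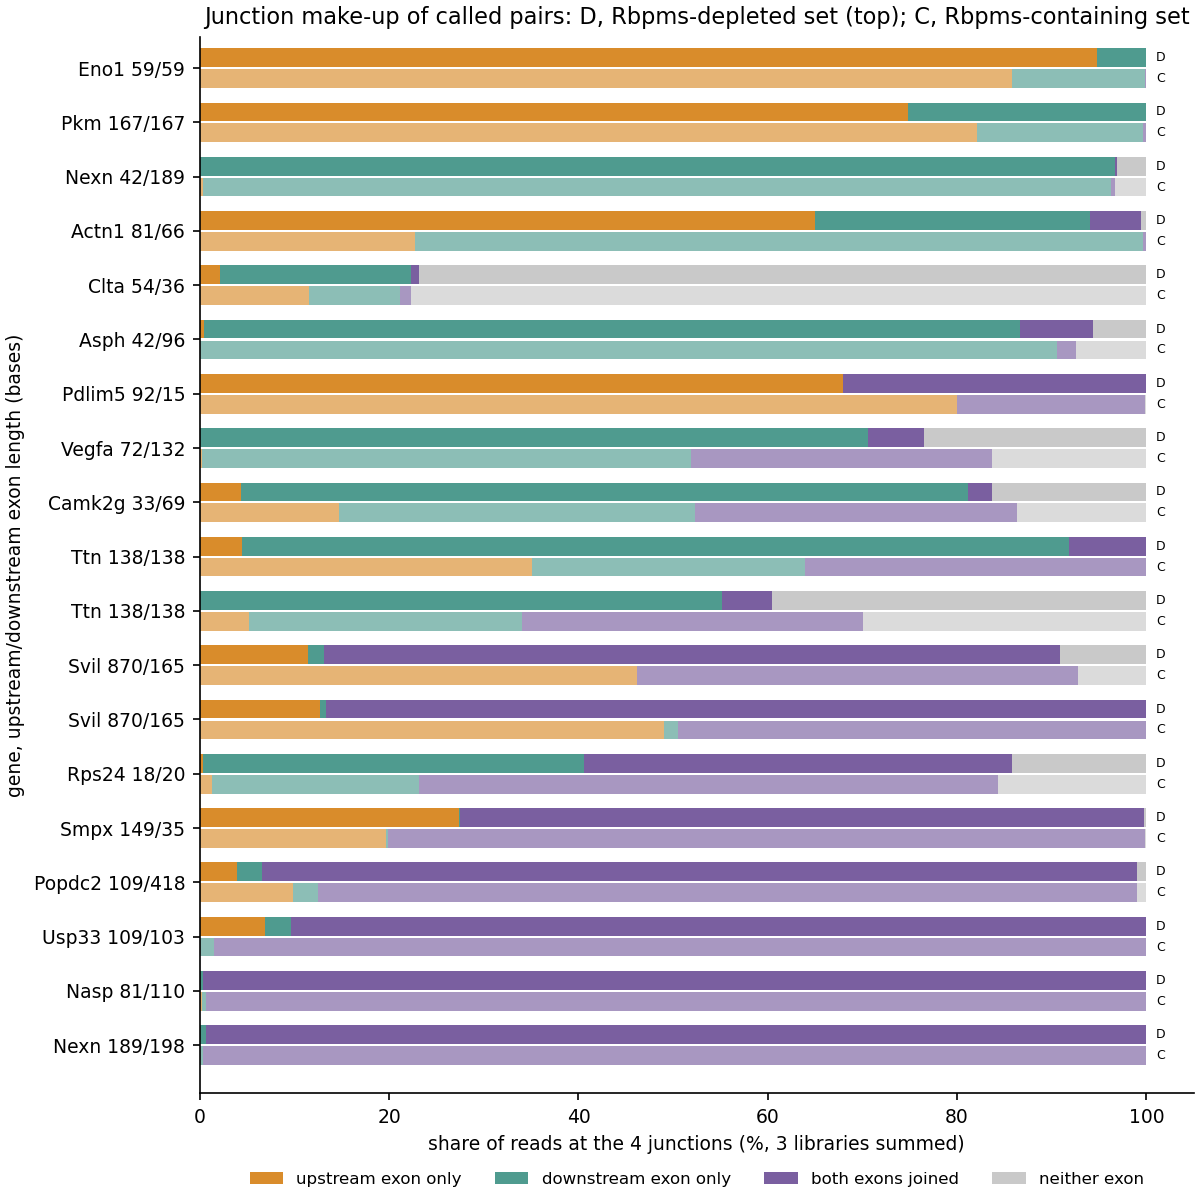
Share of reads at the 4 single junctions (x axis, percent, 3 libraries summed) in 19 called pairs with at least 50 such reads in each set, with the Rbpms-depleted set (D, full colour) above the Rbpms-containing set (C, paler). Actn1, Eno1 and Pkm consist almost wholly of transcripts with 1 exon of the pair, Vegfa, Camk2g and Ttn lose the joined form in the Rbpms-depleted set, and Popdc2, Usp33, Nasp and the Nexn 189/198 pair consist almost wholly of joined exons.

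The single exons gave a second readout of the same libraries. Of the 34 called pairs, 30 had an exon that was tested as a skipped exon, and in 19, from 14 genes, such an exon was itself called, beside the 1.04% called among all skipped exons. The readouts share junction reads, so the second is not an independent measurement. In Actn1 the 81-base exon was included at 59.5% ± 8.93 in the Rbpms-depleted set and 14.1% ± 1.66 in the Rbpms-containing set. Its 66-base exon was included at 23.9% ± 4.82 in the Rbpms-depleted set and 60.2% ± 2.31 in the Rbpms-containing set (SD, n = 3 each), which again shows both partners moving in opposite directions.

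Most pairs in genes known for an exclusive pair did not pass the test. From a list of 38 genes with a described pair, 34 were in the table and 25 could be tested, with 36 distinct pairs, of which 22 were annotated as exclusive. The rest are other exon pairs of the same genes, in part joined in nearly all reads, such as a Mef2a pair of 191 and 204 bases at 99.8%. Beside 1.26% of all events, 4 of the 36 pairs were called, those of Actn1, Tpm2, Pkm and the longer Slc25a3 version, all annotated as exclusive. The upstream reads of that Slc25a3 version lay on the junction it shares with the 125-base exon, whose own pair was not called. The 32 others differed by a median of 3.37 points, from 0.0333 to 12.9, with a smallest adjusted p of 0.0971, and in 28 the difference was under 10 points. The median over all tested events was 3.13 points.

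The closest relatives of the Actn1 and Tpm2 pairs were not called. Actn4, the second nonmuscle alpha-actinin gene, holds the same 81/66-base arrangement as Actn1, and its upstream exon use was 66.7%, 58.0% and 57.2% in the Rbpms-depleted libraries, against 62.3%, 62.8% and 58.5% in the Rbpms-containing libraries (limma adjusted p = 0.990). The sets overlapped, and the log2 odds change of -0.03 had an SE of 0.18. Tpm3 holds a pair of 76-base exons like that of Tpm2 and gave 52.4%, 62.0% and 56.6% in the Rbpms-depleted libraries, against 59.8%, 72.7% and 68.6% in the Rbpms-containing libraries (limma adjusted p = 0.598). The Tpm1 event, with 63-base and 70-base exons that 18 annotated transcripts hold together, gave 59.3% ± 0.624 in the Rbpms-depleted set and 60.8% ± 0.361 in the Rbpms-containing set. Over both sets 67783 reads joined its exons, while 43 held the upstream and 1 the downstream exon alone. This event is therefore not an exclusive pair like that of Tpm2. The difference between the Actn1 and Actn4 shifts, or the Tpm2 and Tpm3 shifts, was not tested.

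The calcium channel and stress kinase pairs of the list did not pass. The 3 distinct tested pairs of Cacna1c, the L-type calcium channel, differed by 11.5, -6.50 and 6.30 points with adjusted p of 0.690 or more. Mapk8, Mapk9, Mapk10 and Mapk14, stress kinases with paired kinase-domain exons, differed by -3.63 to 3.77 points with adjusted p of 0.813 or more. A p above the threshold does not show that the sets were alike, and in Tpm3 and P4ha1 the means differed by -10.03 and 9.07 points.

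**Figure D5:**
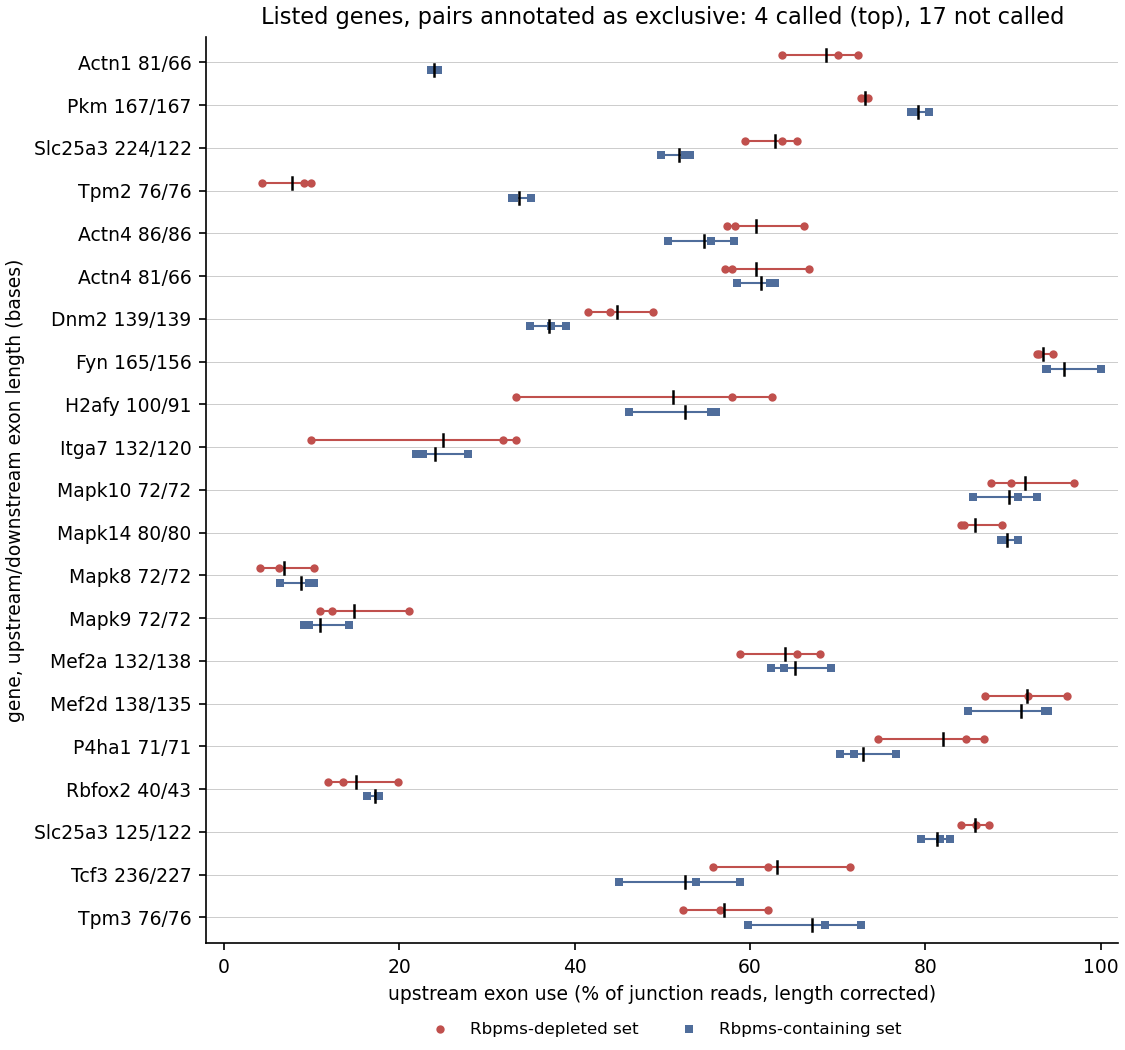
Upstream exon use in percent (x axis) in each of 3 libraries for 21 pairs annotated as exclusive in genes of the list of described pairs, with the Rbpms-depleted set as red circles above the Rbpms-containing set as blue squares, black ticks for means and lines from lowest to highest. The 4 called pairs are on top, and among the 17 others the means lie within 10.5 points of each other.

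By the gene lists, 21 of the 34 called events fell in the sarcomere list and in the list of actin cytoskeleton and adhesion. The lists were chosen with earlier results of these data known, so the shares given here are descriptions and no test. In the sarcomere list, which also holds the kinases Camk2d and Camk2g, 16 of 61 tested events in 16 genes were called, or 26.2% beside 1.26% of all tested events (6 toward the upstream and 10 toward the downstream exon), in Camk2d, Camk2g, Nexn, Pdlim3, Pdlim5, Tnnt2 and Ttn. In the list of actin cytoskeleton and adhesion, 5 of 34 events (14.7%) were called, in Actn1, Pdlim7, Svil and Tpm2. None of 23 events in genes for RNA-binding and splicing factors and none of 36 in genes for transcription and signalling passed, by limma. At an unadjusted p under 0.05 these 2 lists held 1 and 3 events, and the authors' FDR called 0 in either. With so few of all events called, these short lists leave little room for a call, and nothing is read from the zeros. The median absolute difference was 5.13 points in the sarcomere list, 3.90 in the actin list, 2.03 and 3.22 in the others, and 3.13 over all tested events. Several of the 16 sarcomere events share an exon, 4 each in Tnnt2 and Nexn and 3 in Pdlim5.

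The level of the genes was read beside the exon choice. Of the 23 genes with a called pair, 4 had an FDR under 0.05 in the authors' deposited table, 1 higher and 3 lower in Rbpms KO ventricles, next to 11.1% of the 14004 genes in that table. Pdlim5 was the higher one, and Actn1, Eno1 and Nasp were lower. Nasp had the largest change, with 9.83 ± 1.72 RPKM in Rbpms KO ventricles and 16.3 ± 0.865 RPKM in WT ventricles (log2 fold change of -0.68, FDR of 0.000389 in the authors' deposited table). Over the 23 genes the log2 fold change ran from -0.68 to 0.42.

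The CAC triplet that Rbpms binds was no more frequent in the called exons. It was searched on the transcribed strand, with overlapping copies counted. The 53 exons of called pairs held 1.53 CAC per 100 bases and the 4523 exons of tested pairs 1.55. At least 1 copy was present in 33 of the 53, or 62.3%, and in 75.5% of the tested exons. The 53 exons summed to 5770 bases and the 4523 to 680505 bases. The called exons were thus shorter on average, which leaves fewer places for a copy. In Actn1 the upstream exon held 2 copies and the downstream exon 1, while neither Tpm2 exon held any; of tested exons within 5 bases of their lengths, 60.8%, 59.5% and 60.3% held at least 1. The Ttn exons held 4 and 2, where 85.3% of exons of like length held 1 or more. On the opposite strand the triplet stood in 69.6%, 58.7%, 66.1% and 90.5% of the exons of these lengths. The introns around the pairs were not searched, and a triplet in an exon is not a binding site by itself.

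Some calls did not hold with 1 library left out. Of the 34 called pairs, 28 passed in every such run that tested them. Usp33 and Pdlim3 are counted among the 28. Without the second or the third depleted library they fell outside the limits on mean use and were not tested. Pkm lost its call without any 1 of the 3 depleted libraries or the second or the third containing library (adjusted p of 0.0693 to 0.164). Pdlim7 lost it without the first or second depleted library or the second or the third containing library (0.0543 to 0.198), Smpx without the first or second depleted or the third containing library (0.0701 to 0.0862), and the longer Slc25a3 pair without the first or the third depleted or the third containing library (0.0588 to 0.103). The Nexn 189/198 pair (0.0606 to 0.0607) and the Tnnt2 52/11 pair (0.0717 to 0.0721) lost it without the second or the third depleted library. All 6 kept their direction.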

How the data were processed

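Libraries were made from polyadenylated RNA of ventricles with a stranded kit, per the labels' protocols. Inclusion levels (fraction, 0 to 1) and junction read counts are the authors' deposited rMATS-style tables, per the file headers; no source used here gives the aligner or the splicing tool's version. The p-value and FDR columns of those tables are the authors'. RPKM values and a table of log2 fold changes (Rbpms KO over WT, with FDR) were deposited by the authors. Of the authors' own steps, the submitters' processing notes list edgeR 3.30.1, featureCounts 1.6.0 and FastQC 0.11.4. Coordinates are on GRCm38 (mm10).

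Commas were missing from 2388 of 14400 count cells of the exon-pair table. Digits were divided so that the counts gave the printed levels within 0.00051; 81 of 7200 cell pairs allowed several readings, of which the one with the most even totals was kept. Library names are absent, so sets were named by Rbpms reads. Upstream exon use was tested as log2((level + 0.02)/(1 - level + 0.02)) with limma 3.58.1 (R 4.3.3), prior variance following log2 mean reads, over events with 6 levels, a mean of at least 10 reads a library in each set and mean use of 5% to 95%; 911 of 3600 events failed these, 146 of them for a missing level. Adjusted p-values are Benjamini-Hochberg over all tested events. The fit was tested on simulated data. Named pairs are the called events, the 20 genes with the largest difference leading, and all tested pairs of a list of described pairs. The values of 1 pair of that list are not reported here. Members, lists and rules were chosen with earlier results of these data known. Single-junction shares use the 4 junctions between the pair and its own flanking exons, taken from the exon-pair and skipped-exon tables; joined reads worked out in 2 ways were identical in all 6 libraries in 1876 of 2256 events. They are given for events with at least 30 such reads where both ways agreed within 2 reads. A skipping junction with no row (1401 events) counts as 0. Intervals and limits for 0 counts cover counting error only. Exons were matched to GENCODE M21 by coordinates.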

Additional observations from a re-analysis of the deposited data

How the results depend on the processing

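The 34 called events became 33 and 34 with pseudocounts of 0.005 and 0.05, 29 on the untransformed level, 34 with a minimum of 5 or 20 reads or none, 39 without the limits on mean use, 32 with reads inside exons counted (26 shared) and 45 by the authors' FDR. With 1 common prior variance 17 events in 12 genes passed, and with 1 event a gene 16 events; in the second case fewer events were tested, and for the first the cause was not tested. Leaving out 1 library gave 29 to 46 events and 19 to 32 genes. Of skipped exons, 51 became 232 by the authors' FDR and 66 with at least 20 reads; the cause was not tested. No named pair reversed, and 13 of the 34 called pairs, in Actn1, Tpm2, Camk2d, Clta, Ttn, Pdlim5, Tnnt2 and Nexn, passed in every alternative that kept them, while 21 lost the call in at least 1. Of the 32 named pairs that were not called, only Slc25a3 125/122 gained a call, by the authors' FDR (0.0451) and without the first containing library. No paired analysis was possible because the splicing tables name no library, so replicate numbers cannot be matched across the sets. Depth limits the pairs of Usp33, Tacc2, Camk2d, Camk2g and Pdlim3 most, whose rarer exon had 20 or fewer reads in each library.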
